A study of Mus musculus with 28 samples.

Results

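The 8 genes described here were grouped as encoding inhibitors of apoptosis: 5 members of the BCL2 family listed as pro-survival (*Bcl2*, *Bcl2l1*, *Bcl2l2*, *Bcl2l10* and *Mcl1*) and 3 inhibitor of apoptosis proteins, or IAPs (*Xiap*, *Birc2* and *Birc3*). They were chosen by name, and their symbols were matched to gene identifiers with the gene list deposited with the single-cell data; all 8 were among the 44674 genes of the bulk table. Ovaries came from wild-type C57BL/6J females and from *Chek2*-/- females homozygous for the *Chek2* tm1b(EUCOMM)Hmgu allele, a constitutive null allele of the DNA damage checkpoint kinase CHEK2. Each genotype was either sham-treated (non-irradiated) or given 0.5 Gy of whole-body gamma rays from a Cesium-137 source, and ovaries were taken 6 h later. For bulk RNA-seq the females were 7 to 9 days old and each of the 6 libraries per group (24 libraries in all) held the paired ovaries of 1 female; for single-cell RNA-seq the females were 7 days old, and each condition was 1 library from the pooled ovaries of 4 females. The comparison asks whether transcripts of the pro-survival genes changed in the ovary within hours of a dose that damages DNA, and whether CHEK2 was needed for that. The sources used here do not say that wild-type and *Chek2*-/- females were littermates, so the mutation and any other difference between the 2 stocks cannot be told apart.

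In mitochondrial apoptosis, BAX and BAK1 open the outer mitochondrial membrane. The pro-survival BCL2 proteins hold BAX and BAK1 in check and are themselves bound and neutralized by BH3-only proteins such as PUMA (*Bbc3*), NOXA (*Pmaip1*) and BIM (*Bcl2l11*). BCL2, BCL-XL (*Bcl2l1*), BCL-W (*Bcl2l2*) and MCL1 are found in many tissues, MCL1 being a short-lived protein that NOXA binds preferentially, whereas *Bcl2l10* (also called Diva or Boo) is known for its abundance in oocytes. Whether the *Bcl2l10* product favours survival in these cells was not tested. The IAPs act later or elsewhere: XIAP binds and inhibits caspases, while cIAP1 (*Birc2*) and cIAP2 (*Birc3*) are ubiquitin ligases that, together with TRAF2 and TRAF3, restrain the kinase NIK (*Map3k14*) and so non-canonical NF-kB signalling. In the young ovary, apoptosis of oocytes in primordial follicles is the best-known outcome of DNA damage.

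The genes lie on 6 chromosomes (GRCm38 annotation). *Bcl2* was at chr1:106538178-106714274, *Bcl2l1* at chr2:152780668-152831728, *Mcl1* at chr3:95658788-95663176, *Bcl2l2* at chr14:54883377-54888234 and *Xiap* at chrX:42059679-42109656. The other 3 were on chromosome 9: *Bcl2l10* at chr9:75347758-75351632, and the related cIAP genes next to each other on the minus strand, *Birc2* at chr9:7818227-7837064 and *Birc3* at chr9:7848699-7873186. RefSeq (GRCm38.p6) start sites were at hand for 7 of the 8 genes, with 12 starts in all, and none for *Bcl2l10*. The windows of 250 bases before a start of *Birc2* and of *Birc3* are shown because these neighbouring, related genes differed in the cells where their levels were highest. Any part of the windows in that difference was not tested. Capitals mark CG pairs.
Birc2 (chr9:7837058-7837307, minus strand): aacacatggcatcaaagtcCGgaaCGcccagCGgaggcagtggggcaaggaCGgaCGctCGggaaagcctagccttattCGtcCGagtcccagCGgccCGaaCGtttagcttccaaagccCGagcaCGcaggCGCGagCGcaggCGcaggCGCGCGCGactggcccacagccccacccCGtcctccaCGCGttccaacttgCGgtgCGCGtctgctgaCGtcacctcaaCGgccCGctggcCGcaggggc
Birc3 (chr9:7873171-7873420, minus strand): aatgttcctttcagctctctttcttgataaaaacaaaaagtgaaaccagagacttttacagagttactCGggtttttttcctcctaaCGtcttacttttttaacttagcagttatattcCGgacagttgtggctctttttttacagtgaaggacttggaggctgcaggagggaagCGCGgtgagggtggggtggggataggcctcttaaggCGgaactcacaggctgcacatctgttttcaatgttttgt

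The printed *Birc2* window was 68.4% G and C and held 31 CG pairs, the window of the other *Birc2* start (chr9:7836807-7837056) was 61.2% and held 19, and the *Birc3* window was 43.6% and held 6, against medians of 52.4% and 6 over 32851 RefSeq promoters. A p53 half-site, searched on both strands with overlapping matches allowed, was in none of the 12 member windows and in 7.13% of all promoters of that length. An NF-kB site was in 1 window, at a start of *Bcl2l1*, and in 7.25% of all promoters. A match is only a match of letters, and its absence says nothing of binding elsewhere.

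The single-cell libraries showed where each gene was transcribed. After filters 36524 cells were left (8697 to 9779 per library, 30 to 73 cell barcodes shared between any 2 libraries), and clusters were named from marker genes. Levels are given in UMI-CPM, the per-million share of a gene in all unique molecular identifiers (UMIs) of a class, summed over the 4 libraries. *Bcl2l10* was an oocyte transcript: 15225 of its 15611 UMIs were in the 584 oocyte-like cells. It stood at 697 UMI-CPM in the 108 oocyte-like cells of sub-clusters with growing-oocyte markers (*Gdf9* and the zona pellucida genes), at 47.1 in the other 476 oocyte-like cells, and at 0.478 in 11082 granulosa-like and 0.649 in 18648 fibroblast-like cells. The oocyte-like cells were far deeper than the rest, with a median of 102609 UMIs per cell against 22042 in granulosa-like cells, so these levels and not shares of cells are compared. The traces of *Bcl2l10* in the somatic classes ran from 0.478 to 1.65 UMI-CPM and were read as background.

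**Figure D1:**
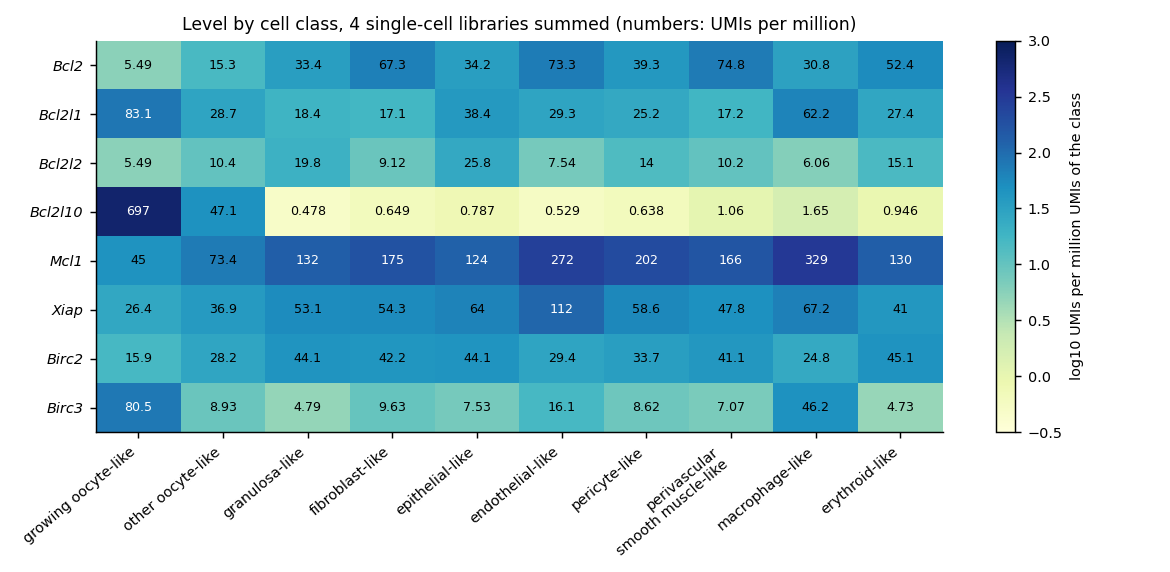
Levels of the 8 genes (rows) in 10 classes of cells (columns), in UMI-CPM with the 4 single-cell libraries summed; the numbers are the levels and the colour their log10. *Bcl2l10* at 697 UMI-CPM in growing oocyte-like cells is the darkest cell, *Mcl1* leads in every somatic class, and *Birc3* is highest in growing oocyte-like (80.5) and macrophage-like cells (46.2).

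*Birc3* and *Bcl2l1* also reached their highest levels among the named classes in growing oocyte-like cells. *Birc3* was at 80.5 UMI-CPM there, against 8.93 in the other oocyte-like cells and 4.79 in granulosa-like cells; the next highest class was macrophage-like, at 46.2. Its neighbour *Birc2* showed a different order, with 15.9 UMI-CPM in growing oocyte-like cells and 24.8 to 45.1 in the somatic classes. *Bcl2l1* was at 83.1 UMI-CPM in growing oocyte-like, 62.2 in macrophage-like and 17.1 in fibroblast-like cells. The *Birc2* and *Birc3* sequences printed above belong to genes that thus ranked the cell classes differently.

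The other members were transcribed mostly outside the oocyte. *Mcl1* led the 8 genes in every somatic class, from 124 UMI-CPM in epithelial-like to 272 in endothelial-like and 329 in macrophage-like cells, and was lowest in growing oocyte-like cells, at 45.0. *Bcl2* was highest in perivascular smooth muscle-like (74.8), endothelial-like (73.3) and fibroblast-like cells (67.3), and was at 5.49 UMI-CPM in growing oocyte-like cells. *Xiap* peaked in endothelial-like cells at 112 UMI-CPM and was at 26.4 to 67.2 in the other named classes. *Bcl2l2* was sparse in the named classes, between 5.49 and 25.8 UMI-CPM, with its highest level in epithelial-like cells. A cluster of 2204 cells (6.03% of all), led by *Cxcl10* and Crygb and carrying granulosa and epithelial markers, stayed unnamed and is in no class; there *Mcl1* was at 241, *Xiap* at 68.2, *Bcl2l2* at 36.1 and *Bcl2l10* at 0.659 UMI-CPM. In an unnamed cluster of 124 cells with *Il1b* and *Cd52* among its leading genes, *Mcl1* was at 425, *Bcl2* at 109 and *Birc3* at 67.0 UMI-CPM. The erythroid-like cells (153) also carried granulosa and fibroblast markers and stood at 130 for *Mcl1* and 52.4 for *Bcl2*.

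In whole ovaries the order of the 8 genes depended on whether length was taken into account. In CPM, the per-million share of a library's counts after TMM scaling, of the 6 non-irradiated wild-type libraries, *Mcl1* was highest (154 ± 8.58 SD, n = 6), followed by *Bcl2l10* and *Xiap*, and *Bcl2* and *Birc2* were lowest. Per kilobase of exon, *Bcl2l10* led with 91.4 CPM per kb (81.6 to 108 over the 6 libraries), ahead of *Mcl1* at 45.2 (41.8 to 48.4). *Bcl2l1* and *Bcl2l2* stood at 15.6 each, *Xiap* at 11.4, *Birc3* at 11.1 and *Birc2* at 10.1 CPM per kb; the ranges over libraries overlapped between *Bcl2l1* and *Bcl2l2*, and among *Xiap*, *Birc3* and *Birc2*. *Bcl2* was lowest, at 4.85 CPM per kb (3.74 to 5.48). Salmon assigned reads to transcripts, so the long and short splice forms of *Bcl2l1*, which have opposite effects on survival, are summed in these values. In bulk ovary, fewer cells of a type and less RNA per cell cannot be told apart.

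Library totals ran from 17824920 to 32605519 counts, so that 3 counts stood for 0.0920 to 0.168 CPM and every member was far above that limit. *Chek2* itself fell from 22.4 ± 1.66 CPM in non-irradiated wild-type to 3.75 ± 0.545 CPM in non-irradiated *Chek2*-/- ovaries (n = 6 each; log2 fold change −2.58, adjusted p = 7.45e-15). All 9 oocyte markers were detected in every group. Some libraries stood apart. Replicate 6 of both *Chek2*-/- groups had the lowest summed oocyte markers of its group (1861 and 2071 CPM against group medians of 3367 and 3402) and the highest epithelial and pericyte markers. Replicate 3 of irradiated wild-type and replicate 2 of irradiated *Chek2*-/- ovaries had neutrophil markers summing to 851 and 881 CPM, against medians of 1.24 and 1.87, and replicate 5 of non-irradiated and replicate 2 of irradiated *Chek2*-/- ovaries had erythroid markers at 10445 and 7047 CPM. Shared replicate numbers did not mark a shared animal or batch in the labels, and p-values measure the spread between these libraries.

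**Figure D2:**
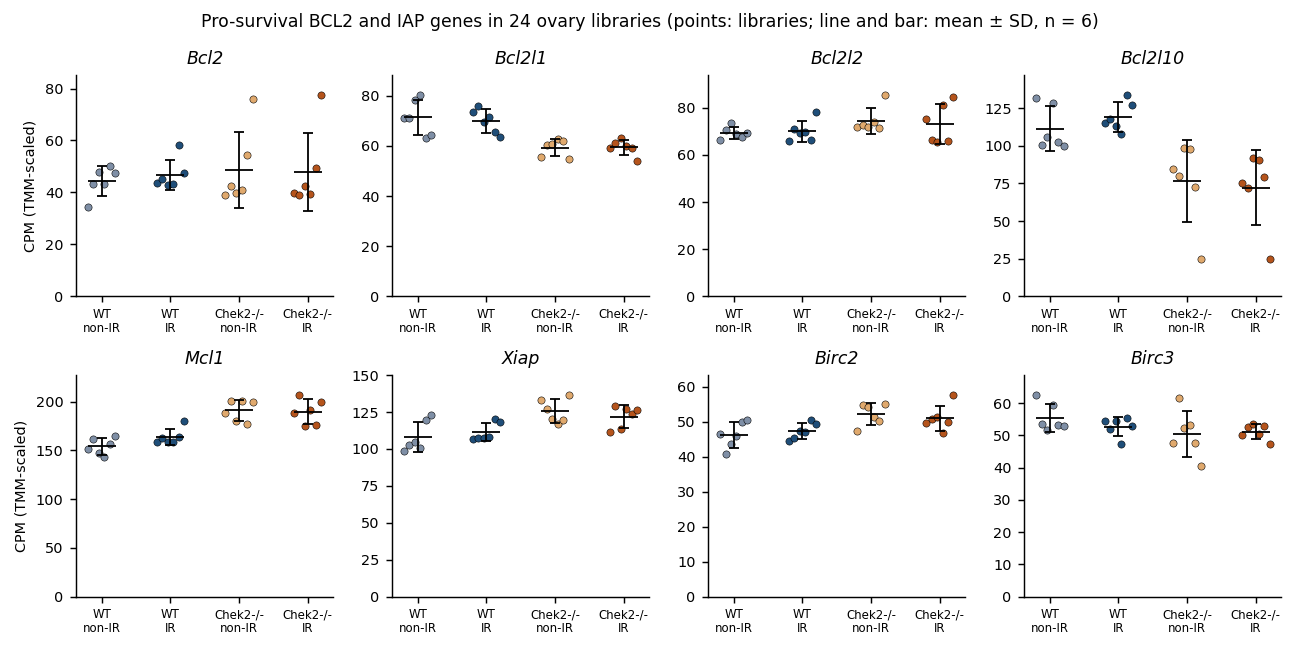
TMM-scaled CPM of the 8 genes in the 24 bulk libraries (points) by genotype and treatment, with the mean and SD of 6 libraries per group; axes start at 0. Irradiated and non-irradiated groups of 1 genotype overlap for every gene, *Mcl1* sits higher and *Bcl2l1* and *Bcl2l10* lower in *Chek2*-/- ovaries, and the 2 low *Bcl2l10* points near 25 CPM are replicate 6 of each *Chek2*-/- group.

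None of the 8 transcripts changed past the threshold 6 h after irradiation in wild-type ovaries (0 of 8 members called by edgeR's quasi-likelihood test with an adjusted p up to 0.05, against 2.41% of 26790 genes tested; edgeR called 646 genes, and 3059 had an unadjusted p under 0.05). The irradiated and non-irradiated groups overlapped for all 8 members, while 2.56% of all genes did not overlap, so that 0 of 8 is near the background. Members had a median log2 fold change of 0.04, with −0.004 over all genes.

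*Mcl1* came nearest to a change. Its level was 143, 154 and 165 CPM (lowest, median and highest of 6 libraries) in non-irradiated and 159, 161 and 180 CPM in irradiated wild-type ovaries. All 6 irradiated libraries lay above the non-irradiated mean, but only 1 lay above every non-irradiated library, and the log2 fold change was 0.09 (95% interval −0.02 to 0.19, adjusted p = 0.57 by edgeR). *Bcl2l10*, the oocyte gene, stood at 99.6, 104 and 132 CPM without and 108, 117 and 134 CPM with irradiation. Those groups overlapped over most of their range, and the interval of its log2 fold change was wide (0.10, −0.41 to 0.60). The interval came from the fit of all 4 groups, so its width includes the spread of the *Chek2*-/- libraries. For *Bcl2l10* the SD was 14.7 CPM (non-irradiated) and 9.68 CPM (irradiated) in wild-type, against 27.2 and 24.7 CPM in *Chek2*-/-. In the same wild-type ovaries the 5 markers of primordial-type oocytes summed to 314 to 376 CPM without and 215 to 285 CPM with irradiation (3 of 5 called lower, 0 higher), and the 6 growing-oocyte markers to 3101 to 3961 and 3070 to 3757 CPM (0 of 6 called). The part of these shifts in the *Bcl2l10* value was not tested.

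For the ubiquitous BCL2 relatives the intervals were narrower. *Bcl2l1* had a log2 fold change of −0.03 (−0.15 to 0.09) and *Bcl2l2* one of 0.02 (−0.11 to 0.15). *Bcl2* had a wider interval, at 0.08 (−0.27 to 0.42). Its SD was 5.65 and 5.84 CPM in non-irradiated and irradiated wild-type ovaries, and 14.6 and 15.1 CPM in the *Chek2*-/- groups of the same fit. Replicate 5 of the irradiated wild-type group was at 58.2 CPM against a group median of 44.3. Among the IAPs, the log2 fold change was 0.05 for *Xiap* (−0.07 to 0.17), 0.03 for *Birc2* (−0.08 to 0.15) and −0.07 for *Birc3* (−0.22 to 0.07). *Bcl2* and *Bcl2l10* thus had the widest intervals of the 8 genes, which include the spread of the *Chek2*-/- libraries. The other 6 had narrower ones.

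In *Chek2*-/- ovaries irradiation also left 8 of 8 members uncalled, but there edgeR called only 3 of 26790 genes (0.0112%; 1179 had an unadjusted p under 0.05). Member log2 fold changes ran from −0.08 (*Bcl2l10*) to 0.02 (*Birc3*). The difference between the genotypes in their response (wild-type minus *Chek2*-/-) was tested as an interaction. It was called for 0 of 8 members and for 1.03% of all genes, with member values from −0.09 (*Birc3*) to 0.18 (*Bcl2l10*) on the log2 scale and adjusted p-values of 0.786 to 0.983. Over all genes 2449 had an unadjusted interaction p under 0.05, and the lowest unadjusted p of a member was 0.182, for *Mcl1*.

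**Figure D3:**
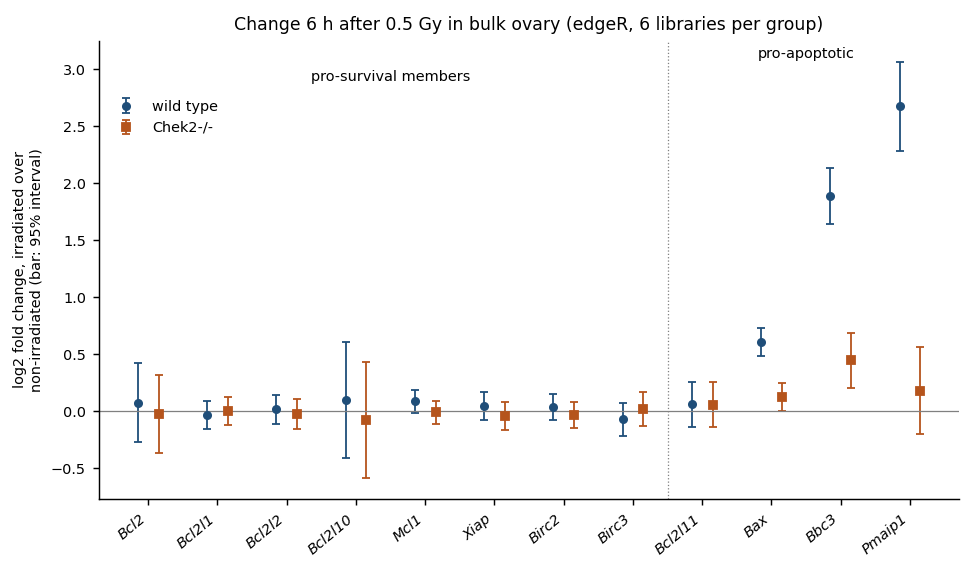
Log2 fold change 6 h after 0.5 Gy in bulk ovary for the 8 pro-survival genes and 4 pro-apoptotic genes, in wild-type (circles) and *Chek2*-/- ovaries (squares); bars are 95% intervals from edgeR with 6 libraries per group. Wild-type *Pmaip1* (2.68), *Bbc3* (1.89) and *Bax* (0.60) stand clear of 0, while the 8 pro-survival genes lie between −0.07 and 0.10 in wild-type ovaries.

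Some of the genes that oppose the members rose in the same wild-type libraries. *Pmaip1*, whose product NOXA neutralizes MCL1, rose from 1.78, 2.37 and 3.69 CPM (lowest, median, highest) to 12.7, 15.3 and 22.6 CPM in wild-type ovaries, which is a log2 ratio of 2.68 (SE 0.19, edgeR adjusted p = 5.29e-10). *Bbc3*, encoding PUMA, rose from 4.42, 5.88 and 7.26 to 18.6, 22.0 and 27.5 CPM (log2 fold change 1.89, SE 0.12, adjusted p = 7.04e-11). For both genes every irradiated library lay above every non-irradiated one. *Bax*, an effector, rose from a median of 49.1 to 79.1 CPM (log2 fold change 0.60, SE 0.06, adjusted p = 2.38e-07). By contrast *Bcl2l11*, encoding BIM, had a log2 fold change of 0.06 (adjusted p = 0.922).

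By list, 1 of 3 effectors (*Bax*), 2 of 8 BH3-only genes (*Bbc3* and *Pmaip1*), 1 of 8 caspase and apoptosome genes and 1 of 12 cIAP partners and NF-kB genes were called higher in irradiated wild-type ovaries, against 1.53% of all genes, and no gene of these lists was called lower. The apoptosome gene was *Apaf1*, the scaffold on which caspase 9 is activated (log2 fold change 0.44, SE 0.06, adjusted p = 1.92e-05 by edgeR). The cIAP partner was *Traf3* (0.49, SE 0.09, adjusted p = 0.000703). No gene was called among the 3 other pro-survival BCL2 genes of the A1 group, the 7 other IAP genes, the 4 IAP antagonists (*Diablo*, *Htra2*, *Xaf1* and *Septin4*) or the 3 regulators of MCL1 turnover (*Huwe1*, *Usp9x* and *Fbxw7*). In *Chek2*-/- ovaries none of the genes on these lists was called (0.0112% of all genes). *Bbc3* was still higher in every irradiated *Chek2*-/- library (6.75 to 9.66 CPM) than in any non-irradiated one (5.53 to 6.43 CPM). Its log2 fold change there was 0.45, and the groups of 0.149% of all genes did not overlap in that comparison. The interaction, called for 1.03% of all genes, was called for *Pmaip1* (2.50, adjusted p = 2.01e-06), *Bbc3* (1.44, 8.06e-06), *Bax* (0.48, 0.00224) and *Apaf1* (0.39, 0.0127), and not for *Traf3* (0.40, 0.151).

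Members differed between the genotypes in bulk ovary. Without irradiation, 3 of 8 members were called between *Chek2*-/- and wild-type ovaries by edgeR, against 5.34% of all genes: *Mcl1* and *Xiap* were higher in *Chek2*-/- (3.12% of genes were called higher) and *Bcl2l1* was lower (2.22% called lower). The groups did not overlap for *Mcl1*, *Bcl2l1* and *Bcl2l10*, 3 of 8 members against 3.22% of all genes. Median log2 fold changes were 0.12 over members and 0.01 over all genes. None of the 3 called differences reached 2-fold.

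*Mcl1* stood at 143, 154 and 165 CPM in wild-type and 177, 194 and 201 CPM in *Chek2*-/- non-irradiated ovaries. Every *Chek2*-/- library was above every wild-type library (log2 fold change 0.31, SE 0.05, adjusted p = 0.00101 by edgeR). *Bcl2l1*, encoding BCL-XL, stood at 63.2, 71.1 and 80.5 CPM in wild-type and 54.7, 60.6 and 62.6 CPM in *Chek2*-/- ovaries, with every *Chek2*-/- library below every wild-type one (−0.27, SE 0.06, adjusted p = 0.012). *Xiap* stood at 98.7, 103 and 123 CPM in wild-type and 117, 124 and 137 CPM in *Chek2*-/- ovaries; 3 of 6 *Chek2*-/- libraries were above all wild-type ones. Its log2 fold change was 0.22 (SE 0.06, adjusted p = 0.0297), and the call was lost when replicate 1, 2, 3 or 4 of the wild-type or replicate 1 or 6 of the *Chek2*-/- group was left out (adjusted p = 0.0531 to 0.0788).

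*Bcl2l10* was lower in every *Chek2*-/- library than in any wild-type one but was not called. It stood at 99.6, 104 and 132 CPM in wild-type and 24.9, 82.4 and 98.6 CPM in *Chek2*-/- non-irradiated ovaries (log2 fold change −0.55, SE 0.25, adjusted p = 0.196 by edgeR). The value rested in part on replicate 6, without which it was −0.36 (adjusted p = 0.287). The 6 growing-oocyte markers moved the same way: their sum was 3101 to 3961 CPM in wild-type and 1583 to 3217 CPM in *Chek2*-/- ovaries, 6 of 6 had negative log2 fold changes and 1 of 6 was called. The growing oocyte-like cells were also those with the highest *Bcl2l1* level, and the part of growing oocytes in the *Bcl2l10* and *Bcl2l1* differences was not tested. Fibroblast markers, 7 in all, summed to a median of 4826 CPM in wild-type and 4051 CPM in *Chek2*-/- ovaries, with 2 of 7 called lower. Of the other marker lists, 2 of 3 quiescent pregranulosa markers (median log2 fold change 0.59) and 1 of 5 oviduct and uterine epithelium markers were called higher in *Chek2*-/-, 2 of 6 pericyte markers were called lower, and no marker of the remaining lists was called, the widest medians being −0.55 for perivascular smooth muscle (6 of 6 negative), −0.55 for fat, −0.72 for lymphocyte, −0.35 for granulosa, 0.97 for neutrophil and 2.32 for erythroid markers (6 of 6 positive). The part of these markers in the *Mcl1*, *Xiap* and *Bcl2l1* differences was not tested.

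The remaining members were not called between genotypes. *Birc2* differed by a log2 ratio of 0.17 (SE 0.06, adjusted p = 0.0646 by edgeR; called with a replicate block, adjusted p = 0.0305, and by DESeq2, adjusted p = 0.02), *Birc3* −0.14 (adjusted p = 0.266), *Bcl2l2* 0.10 (adjusted p = 0.368) and *Bcl2* 0.14 (adjusted p = 0.705). For *Bcl2* the sign depended on replicate 6 of the *Chek2*-/- group, at 76.1 CPM against a group median of 41.7, without which the value was −0.04.

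The genotypes were also compared in the 12 irradiated libraries. This is not an independent repeat: both comparisons came from 1 fit, and the same-numbered *Chek2*-/- libraries of the 2 treatments deviated together in 5 of 6 pairs (r of 0.19 to 0.66 across genes, which are not independent replicates), most for replicate 6, the library low in *Bcl2l10* in both. There 9.84% of genes were called, and 2 of 8 members. *Mcl1* was again higher in *Chek2*-/- (159, 161 and 180 CPM in wild-type, 175, 190 and 207 CPM in *Chek2*-/-; log2 fold change 0.21, SE 0.05, adjusted p = 0.00622 by edgeR), with some overlap. *Bcl2l1* was again lower (63.4, 70.8 and 75.8 against 53.9, 59.5 and 63.1 CPM; −0.24, SE 0.06, adjusted p = 0.0115), without overlap. *Bcl2l10* did not overlap either and was not called (108, 117 and 134 against 24.7, 77.3 and 92.1 CPM; −0.72, SE 0.25, adjusted p = 0.0658); groups of 5.3% of all genes did not overlap. *Xiap* was not called (0.13, adjusted p = 0.171).

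**Figure D4:**
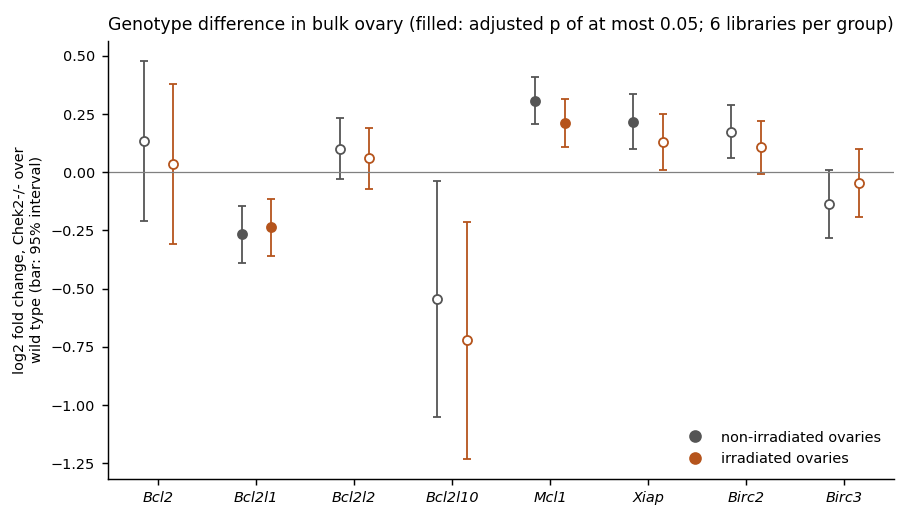
Log2 fold change of the 8 genes between *Chek2*-/- and wild-type bulk ovaries, for non-irradiated (grey) and irradiated (orange) libraries, with 95% intervals from edgeR; filled points have an adjusted p of at most 0.05. *Mcl1* (0.31 and 0.21) and *Bcl2l1* (−0.27 and −0.24) are filled in both, *Xiap* (0.22) only without irradiation, and *Bcl2l10* has the widest intervals.

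The genotype differences of bulk ovary were also looked for within the classes of the single-cell libraries. With 1 library per condition there is no test, and intervals cover counting error only. Between the non-irradiated libraries, *Mcl1* stood at 135 UMI-CPM in wild-type and 126 in *Chek2*-/- granulosa-like cells (ratio 0.94, 95% interval 0.91 to 0.97) and at 173 and 157 in fibroblast-like cells (0.91, 0.88 to 0.93), which is the opposite direction to bulk ovary; the ratio was 1.12 (0.99 to 1.26) in epithelial-like and 1.15 (1.04 to 1.26) in endothelial-like cells, and 1.33 (1.25 to 1.41) in the unnamed cluster of 2204 cells. *Bcl2l1* was at 17.6 and 17.9 UMI-CPM in granulosa-like and at 17.2 and 17.5 in fibroblast-like cells, with ratios of 1.01 in both. Over all cells of a library the ratio was 0.93 for *Bcl2l1* (0.89 to 0.97), the direction of bulk ovary, and 1.02 for *Mcl1* (1.00 to 1.04), which is near 1. Such ratios also take in the mix of cells: the unnamed cluster held 378 non-irradiated wild-type and 659 non-irradiated *Chek2*-/- cells. The part of that mix was not tested. *Bcl2* was lower in the *Chek2*-/- library in granulosa-like (38.7 against 26.1 UMI-CPM, ratio 0.67) and fibroblast-like cells (75.8 against 59.0, ratio 0.78). *Bcl2l10* had a ratio of 0.41 in growing oocyte-like cells (585 against 241 UMI-CPM) and 0.77 in the others (32.7 against 25.3). The growing cells came from 2 sub-clusters, with 37 and 20 cells in wild-type and 4 and 11 in *Chek2*-/-, within which the *Bcl2l10* ratios were 0.59 and 0.64.

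In granulosa-like, fibroblast-like and epithelial-like cells the share of members that differed between irradiated and non-irradiated libraries was near that of all genes. The counts below cover these somatic classes only. A ratio of irradiated over non-irradiated of at least 1.5-fold either way, in genes with at least 100 UMIs over both libraries, was met by 0 of 7 members in wild-type and 0 of 7 in *Chek2*-/- granulosa-like cells, against 3.04% and 2.18% of all genes. In fibroblast-like cells it was met by 0 of 8 and 0 of 7 members (3.07% and 2.28% of genes), the 8 including *Bcl2l10*, whose traces there were read as background. In epithelial-like cells it was met by 1 of 7 and 0 of 6 members (12.2% and 2.77%); the 1 was *Birc3* in wild-type cells, with an interval that included 1 (1.51, 0.997 to 2.33). In the unnamed cluster of 2204 cells the 7 members with enough UMIs had ratios of 0.84 to 1.29 in wild-type and 0.91 to 1.38 in *Chek2*-/-.

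In irradiated over non-irradiated wild-type cells *Mcl1* had ratios of 0.90 in oocyte-like (0.83 to 0.97), 1.07 in granulosa-like (135 to 145 UMI-CPM), 1.12 in fibroblast-like (173 to 194), 1.18 in endothelial-like (240 to 284) and 1.38 in epithelial-like cells (102 to 141). The *Chek2*-/- ratios were 0.97, 1.11, 1.04 and 1.12 in the same 4 somatic classes, and 1.13 (1.03 to 1.25) in oocyte-like cells. With each cell thinned to 3000 UMIs, the wild-type oocyte-like ratio turned to 1.76 (1.06 to 2.92), the endothelial-like direction turned in both genotypes (257 to 245 UMI-CPM in wild-type and 268 to 242 in *Chek2*-/-), and the *Chek2*-/- granulosa-like ratio turned to 1.04. In the same wild-type granulosa-like and fibroblast-like cells *Bax* had ratios of 2.47 and 2.38, and *Bbc3* ratios of 2.92 and 4.74. Whether the genotypes differ in these ratios cannot be tested with 1 library per condition.

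In oocyte-like cells the share of members past 1.5-fold in wild-type was near that of all genes. There were 196 such cells in the non-irradiated and 172 in the irradiated wild-type library, and 75 and 141 in the *Chek2*-/- libraries. In wild-type, 3 of 8 members passed 1.5-fold, against 23.8% of all genes, and in *Chek2*-/- 2 of 8, against 6.24%. The wild-type 3 were *Bcl2l10*, higher after irradiation (150 to 357 UMI-CPM, ratio 2.39, 95% counting interval 2.29 to 2.49), *Bcl2l2*, lower (11.9 to 6.05; 0.51, 0.40 to 0.65), and *Xiap*, lower (37.7 to 24.6; 0.65, 0.57 to 0.74). The *Chek2*-/- 2 were *Bcl2l10* (98.7 to 277; 2.80) and *Birc3* (21.2 to 33.2; 1.56). The share of growing cells differed between libraries, at 57, 17, 15 and 19 cells in non-irradiated and irradiated wild-type and in non-irradiated and irradiated *Chek2*-/- libraries, so the growing and other cells are given apart. Thinning each cell to 3000 UMIs weights cells equally and kept 189 of 196 non-irradiated and 121 of 172 irradiated wild-type cells. The thinned wild-type ratio was 0.81 for *Bcl2l10* (0.63 to 1.03, from 194 and 100 UMIs), 1.04 for *Bcl2l2* (0.22 to 4.39, from 6 and 4 UMIs) and 1.23 for *Xiap* (0.50 to 2.91, from 14 and 11 UMIs), so each lay on the other side of 1 with an interval that included 1. The thinned intervals of *Bcl2l2* and *Xiap* also included their unthinned ratios. *Mcl1* turned from 0.90 to 1.76 (1.06 to 2.92, from 32 and 36 UMIs) and *Birc3* from 1.38 to 0.40 (0.15 to 0.95, from 27 and 7 UMIs), with intervals that did not include 1. *Bcl2* (0.98 to 1.39), *Bcl2l1* (1.21 to 0.92) and *Birc2* (1.00 to 0.92) crossed 1 as well, with thinned intervals that included it, so no wild-type direction in all oocyte-like cells held under this weighting.

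Outside the growing sub-clusters, with 139 and 155 wild-type and 60 and 122 *Chek2*-/- cells, the same 3 members passed in wild-type (26.9% of genes) and 0 of 8 in *Chek2*-/- (4.39%). *Bcl2l10* went from 32.7 to 113 UMI-CPM in wild-type (ratio 3.47, 3.16 to 3.80) and was at 25.3 and 28.8 in *Chek2*-/- (1.14, 0.96 to 1.36, pooled over sub-clusters). Within *Chek2*-/- sub-clusters the *Bcl2l10* ratio was 2.11 in one of 38 cells (1.44 to 3.17, from 38 and 94 UMIs), 1.52 in one of 163 cells (1.04 to 2.27), 0.81 (0.61 to 1.08) and 1.71 (0.64 to 4.42, from 12 and 9 UMIs) in a pair of 72 cells each, and in one of 69 cells there were 0 and 40 UMIs (from 3 and 15 cells). *Xiap* went from 40.7 to 25.1 UMI-CPM in wild-type (0.62, 0.54 to 0.71) and from 37.9 to 39.8 in *Chek2*-/- (1.05). *Bcl2l2* went from 13.4 to 6.21 UMI-CPM in wild-type (0.46, 0.35 to 0.60) and from 8.67 to 9.44 in *Chek2*-/- (1.09). Thinned as above, *Xiap* stood at 24.7 and 34.9 UMI-CPM in these wild-type cells (from 10 and 11 UMIs) and *Bcl2l2* at 9.88 and 12.7 (from 4 UMIs each). Those counts are too few to give a direction. Thinned *Bcl2l10* was still higher in the irradiated library (22.2 and 102, from 9 and 32 UMIs). The other 5 members lay between pooled ratios of 0.82 (*Birc3*) and 1.15 (*Bcl2l1*) over sub-clusters in wild-type cells. Of the BH3-only genes, 3 were looked at in those wild-type cells, where 6.51% of all genes were 2-fold or more higher after irradiation: *Pmaip1* was at 2.98 and 46.6 UMI-CPM (ratio 15.6), *Bbc3* at 8.95 and 74.4 (8.32) and *Bcl2l11* at 12.8 and 25.04 (1.96). Wild-type *Bax* had ratios of 1.16 (1.01 to 1.31) in the sub-cluster of 163 cells and 1.49 (1.13 to 1.94) in that of 69. It was at 1.13 (0.64 to 2.09) in one of 72 cells and 0.97 (0.80 to 1.18) in a growing sub-cluster of 67. In *Chek2*-/- cells of the sub-cluster of 163, ratios were 0.98 for *Bax*, 0.92 for *Bbc3*, 0.61 for *Pmaip1* and 0.74 for *Bcl2l11*, with intervals that included 1.

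Other transcripts moved with *Bcl2l10* in these wild-type cells. The 6 growing-oocyte markers summed to 3059 UMI-CPM without and 6355 with irradiation, with *Zp3* at a ratio of 2.41, *Gdf9* at 1.82 and *Oosp1* at 3.60, and *Bmp15* at 1.11. In the *Chek2*-/- libraries they summed to 2632 and 3346. The 5 primordial-type markers had ratios of 0.89 to 1.00 in wild-type. The 6 granulosa markers summed to 428 UMI-CPM in the non-irradiated and 161 in the irradiated wild-type cells, and to 199.8 and 300.04 in *Chek2*-/-. The 7 fibroblast markers went the other way in wild-type, at 224 and 318 UMI-CPM, and were at 180 and 256 in *Chek2*-/-. *Bcl2l2*, *Xiap*, *Mcl1*, *Bcl2* and *Birc2* stood higher in granulosa-like than in oocyte-like cells, and their wild-type ratios here were 0.46, 0.62, 0.87, 1.01 and 1.02. None of these markers was at 0, and their part in the 3 member ratios was not tested.

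**Figure D5:**
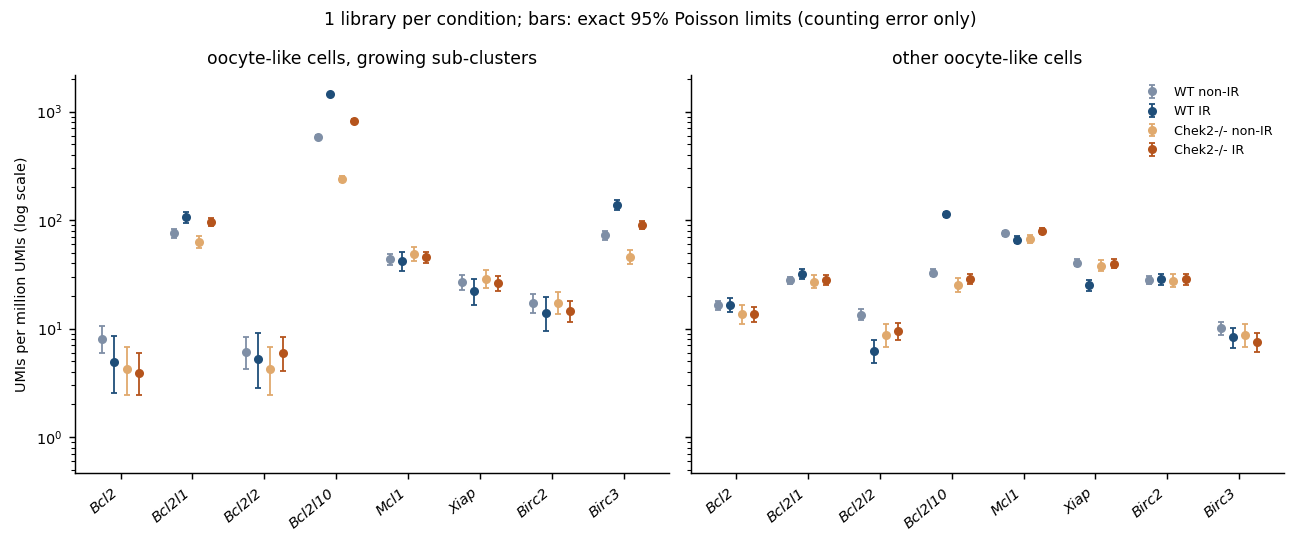
Level in UMI-CPM (log axis) of the 8 genes in growing (left) and other (right) oocyte-like cells of the 4 single-cell libraries; bars are exact 95% Poisson limits and cover counting error only, with 1 library per condition. In the right panel *Bcl2l10* of the irradiated wild-type library (113) stands above the other 3 libraries (25.3 to 32.7), and *Bcl2l2* and *Xiap* of that library stand below them.

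The sub-clusters showed that the *Bcl2l10* difference was uneven among cells. A sub-cluster of 62 cells, led by *Cbr2*, *Cst6* and *Fermt1*, came from the irradiated wild-type library alone. It held *Bcl2l10* at 124, *Xiap* at 21.5 and *Bcl2l2* at 4.32 UMI-CPM. By RT-qPCR the authors found *Cbr2* and *Fermt1* raised in irradiated wild-type ovaries. They saw *Cbr2* signal by in situ hybridization in irradiated oocytes only. For the member levels in this sub-cluster, a cell state and a feature of the library cannot be told apart with 1 library per condition. In a sub-cluster of 163 cells with *Cxcl10*, *Aldh1a1* and *Igfbp2* among its leading genes, *Bcl2l10* was at 27.8 UMI-CPM without and 56.1 with irradiation in wild-type (ratio 2.02, 1.54 to 2.61). It was at 16.7 and 25.3 in *Chek2*-/- (1.52, 1.04 to 2.27), and *Bcl2l2* was at 15.7 over all libraries. This sub-cluster held 87 of the 139 non-irradiated and 29 of the 155 irradiated wild-type cells outside the growing sub-clusters. Within it the wild-type ratios of *Xiap* (1.13, 0.86 to 1.47) and *Bcl2l2* (1.29, 0.83 to 1.94) were not below 1, *Mcl1* (85.6 and 129 UMI-CPM, ratio limits 1.26 to 1.77) and *Bcl2* (18.5 and 34.97 UMI-CPM, ratio limits 1.34 to 2.62) were higher in the irradiated library, and *Birc3* was at 0.60 (0.24 to 1.26, from 151 and 7 UMIs). Such ratios leave out the irradiated cells that formed their own sub-cluster. The part of the mix of sub-clusters in the pooled ratios was not tested. In a sub-cluster of 69 cells led by collagen genes the wild-type order was the other way, with *Bcl2l10* at 69.7 and 29.8 UMI-CPM from 106 and 8 UMIs, and *Mcl1* had a ratio of 1.85 (1.23 to 2.74).

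In growing oocyte-like cells *Bcl2l10* was higher in the irradiated library of both genotypes, at 585 and 1444 UMI-CPM in wild-type (ratio 2.47) and 241 and 821 in *Chek2*-/- (3.40). *Birc3* went the same way, at 72.1 and 137 UMI-CPM in wild-type (1.91) and 45.7 and 89.8 in *Chek2*-/- (1.97), as did *Bcl2l1*, at 75.2 and 106 (1.41) and 63.3 and 95.8 (1.51). These cells came from 2 sub-clusters, in which *Bcl2l10* stood at 1317 (67 cells) and 156 UMI-CPM (41 cells), and the second held 0 irradiated wild-type cells against 20 non-irradiated ones. Within the second, the *Chek2*-/- ratio of *Bcl2l10* was 1.22 (123 and 150 UMI-CPM from 11 and 10 cells). Within the first, the wild-type ratio was 1.35 (1072 and 1444 UMI-CPM from 37 and 17 cells). The *Chek2*-/- ratio in the first was 2.74 (635 and 1738 from 4 and 9 cells). There the wild-type ratios were 1.15 for *Birc3* (0.98 to 1.34) and 1.11 for *Bcl2l1* (0.93 to 1.32), with intervals that included 1, and the *Chek2*-/- ratios 1.61 (1.28 to 2.03) and 1.29 (1.03 to 1.64). *Mcl1*, *Xiap* and *Birc2* had ratios of 0.81 to 0.96 over all growing cells, with intervals that included 1 in both genotypes.

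Across the 24 bulk libraries, each member's level was set beside those of 15956 genes to find the 3 with the most similar pattern (highest Pearson r of log2 CPM; the libraries share genotype, treatment and tissue composition, and no p is given). For *Bcl2l10* these were 3 F-box genes, *Fbxw13*, *Fbxw20* and *Fbxw28*, with r of 0.99. *Mcl1* was most like *Klf6* (0.96), *Neat1* (0.93) and *Atp13a3* (0.92). *Bcl2l1* was most like *1600010M07Rik* (0.91), *Sufu* (0.90) and *Rnf122* (0.90). For *Xiap* the genes were *Rc3h2*, *Far1* and *Tmed7* (0.94 to 0.95), and for *Bcl2* they were *Cdc14b*, *Stx6* and *App* (0.91 to 0.93). *Birc3* was most like *Wee2* (0.81), an oocyte kinase, *Cpne9* and *Clspn* (0.80 each). *Birc2* was nearest to *mt-Nd4l* and *Has1* (0.87 each) and *Ankfy1* (0.85), and *Bcl2l2* to *Rab12* (0.83), *Itga6* and *Smad3* (0.82 each).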

How the data were processed

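Mouse ovaries were measured by bulk RNA-seq (24 libraries, 6 per group) and single-cell RNA-seq (4 libraries, 1 per condition). The deposited bulk values were estimated counts per gene: the authors trimmed reads (Trim Galore 0.6.5) and quantified them with Salmon 1.3.0 against Ensembl transcripts, and the counts were rounded here before testing. The deposited single-cell values were UMI counts from Cell Ranger (mm10), filtered by it for cells. Groups came from the labels.

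Of 44674 genes, 26790 with at least 10 counts in total were tested with edgeR 4.0.16 (TMM, quasi-likelihood test, 4 groups in 1 fit, Benjamini-Hochberg adjustment over all genes, threshold 0.05); CPM are TMM-scaled, and intervals are at 95%. DESeq2 1.42.0, limma 3.58.1, other scalings and filters, a replicate block and leaving out each library were alternatives. On simulated counts for irradiated against non-irradiated wild-type ovaries (26790 genes), edgeR recovered 87% of 2-fold and 69% of 1.5-fold changes. Cells with at least 1000 genes, at most 20% mitochondrial and 50% ribosomal UMIs were kept, called doublets (4.0% to 5.5% per library) removed, and clusters (Leiden, resolution 0.5, 2000 variable genes, 30 components) named from markers. The 4 libraries were joined without batch correction before clustering. UMIs were summed per class and library; ratios needed 100 UMIs and carry exact limits for counting error only. Thinning took each cell to 3000 UMIs.

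The 8 members and all gene lists were chosen with earlier results of these data known. Named genes were the members, *Chek2*, pathway genes called in wild-type ovaries or in the interaction, *Bax*, *Bbc3*, *Pmaip1* and *Bcl2l11*, and the 3 genes most correlated with each member; other genes were named after their values were seen. Promoter sequences were RefSeq's (GRCm38.p6).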

Additional observations from a re-analysis of the deposited data

Results flagged for a closer look

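In 6 of 32 sets of 6 libraries (8 genes in 4 groups) 1 library lay farther from the rest than Dixon's limit, which chance passes in about 1 set in 20. Among *Chek2*-/- libraries, replicate 6 gave 4 of these: *Bcl2l10* at 24.9 CPM without and 24.7 CPM with irradiation (next lowest 72.5 and 72.0), *Bcl2l2* at 85.6 CPM without irradiation (next highest 73.9) and *Bcl2* at 77.6 CPM with irradiation (next highest 49.3). In irradiated wild-type ovaries, *Bcl2* was at 58.2 CPM in replicate 5 (next highest 47.4) and *Mcl1* at 180 CPM in replicate 6 (next highest 164).

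The response to irradiation differed between the genotypes for 4 pro-apoptotic genes by edgeR's interaction test, as wild-type minus *Chek2*-/- on the log2 scale: 2.50 for *Pmaip1*, 1.44 for *Bbc3*, 0.48 for *Bax* and 0.39 for *Apaf1*. In wild-type ovaries all 4 were higher in 6 of 6 irradiated libraries than in every non-irradiated one.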

How the results depend on the processing

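No alternative called a member after irradiation in either genotype or in the interaction, and leaving out each library in turn gave 0 members in all 3. Between genotypes without irradiation, 2 to 4 members were called with 1 library left out, and *Mcl1* (0.29 to 0.33) and *Bcl2l1* (−0.30 to −0.23) were called each time; *Xiap* was lost in 6 of 12 and with only the 2 groups fitted (0.21, adjusted p = 0.088 by edgeR). *Birc2* was called by DESeq2 (0.17, adjusted p = 0.02) and under edgeR's own filter (0.18, adjusted p = 0.0375). Asking also for 2-fold left 0 members. Signs near 0 turned: *Bcl2l1* in irradiated *Chek2*-/- ovaries was 0.00018, but −0.0014 with DESeq2's size factors, −0.0015 by DESeq2, −0.0037 under either other filter and −0.0056 with only 2 groups. With 1 library left out, signs turned within −0.22 to 0.15 (*Bcl2*), −0.023 to 0.019 (*Bcl2l1*), −0.26 to 0.092 (*Bcl2l10*), −0.079 to 0.018 (*Bcl2l2*), −0.036 to 0.081 (*Birc3*) and −0.038 to 0.010 (*Mcl1*) for irradiated *Chek2*-/-, −0.056 to 0.015 (*Bcl2l1*) and −0.0073 to 0.046 (*Bcl2l2*) for irradiated wild-type, −0.069 to 0.31 (*Bcl2*) and −0.056 to 0.019 (*Bcl2l1*) for the interaction, and −0.036 to 0.20 (*Bcl2*) between genotypes. The cause was not tested.

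Same-numbered libraries were not paired by the labels and deviated together in 16 of 36 pairs (correlation over 0.1, range −0.19 to 0.66), 11 correlating best with their own number. Differently numbered pairs over 0.1 were not counted, so no batch can be read from these values. With a replicate block, 0 members were called after irradiation or in the interaction and 4 between genotypes, *Birc2* being added (adjusted p = 0.0305 by edgeR), and *Bcl2l1* in irradiated *Chek2*-/- ovaries was −0.00045.

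Thinning each oocyte-like cell to 3000 UMIs, which weights cells equally, turned the wild-type ratios of *Bcl2l10* (0.81), *Bcl2l2* (1.04) and *Xiap* (1.23), and those of the other 5 members, *Mcl1* (1.76) and *Birc3* (0.40) among them, crossed 1 too. That 0 members passed 1.5-fold after thinning says little: only wild-type *Bcl2l10* (294 UMIs) still reached 100 UMIs, and no member did in *Chek2*-/-, where *Bcl2l10* had 92 UMIs and a ratio of 1.72 (1.07 to 2.87). Outside the growing cells thinned *Bcl2l10* was still at 22.2 and 102 UMI-CPM, from 9 and 32 UMIs. Leaving out growing cells, chosen after seeing the data, left 0 members past 1.5-fold in *Chek2*-/- oocyte-like cells and turned *Birc3* to 0.86, and keeping only deep non-growing sub-clusters left 0 and 0.91. Keeping doublets gave 1 member in wild-type granulosa-like cells (*Bcl2l10*, 0.59), a transcript whose traces in somatic classes were read as background.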
